A study of Mus musculus with 8 samples.

Results

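Cytosolic ribosomal protein genes were examined in heart ventricles of mouse embryos at embryonic day 9.5. Their members were the rows of the count table whose whole symbol is Rpl or Rps and a number. A letter a, x, y or l and a further number may follow, and symbols with other endings were left out. *Rplp0*, *Rplp1*, *Rplp2* and *Rpsa* were included. Each member had 10 or more counts in at least 4 of 8 samples. Rows named as pseudogenes (-ps) were left out. This rule gave 83 genes of the 53465 rows in the table, 48 for the large subunit and 35 for the small subunit. A further 6 rows matched by symbol but did not reach the minimum. They included the muscle paralog *Rpl3l*, with 3 to 14 counts, and *Rpl39l*, with 0 to 3 counts. By annotation 80 members were protein-coding and the others, *Rps3a2*, *Rps3a3* and *Rps4l*, were processed pseudogenes, so they may share reads with *Rps3a1* and *Rps4x*.

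The comparison was between 4 samples labelled Nrg-1flox;Tie2-Cre, called mutant here, and 4 samples labelled WT. *Nrg1* encodes neuregulin-1, a ligand that endocardial cells present to the myocardium, and Tie2-Cre recombines in endothelial cells, including the endocardium, and in many blood cells, which share their origin. The labels give no other allele for either genotype, and they do not say whether a sample was a single embryo or a pool. P-values therefore measure the spread between these samples only.

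The cytosolic ribosome is built from a large (60S) and a small (40S) subunit, each a core of ribosomal RNA covered by proteins. Cells make these proteins in nearly equal numbers. Many of the messenger RNAs start with a C and a run of pyrimidines, the 5′ terminal oligopyrimidine (TOP) motif, through which mTOR signalling sets their translation. Maturing red blood cells are known to depend closely on the supply of ribosomes: loss of 1 copy of several ribosomal protein genes causes Diamond-Blackfan anemia in people.

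The sequences around the start sites are shown because the pyrimidine tract is the feature that the genes of this family are best known to share. Start sites were those of RefSeq on GRCm38.p6, and 60 of the 83 members had an entry. Each window is 30 bases, 5′ to 3′ on the strand of the gene. Capitals mark a C followed without a break by pyrimidines, the longest such tract from 20 bases before to 40 bases after the start site. In the order printed, the tracts began at positions 27, 21, 22, 3, -16, -20, 8 and 12 from the start site. They are therefore not TOP motifs by position alone. *Rps2*, *Rpsa* and *Rps7* had the largest rises that passed the test, *Rpl22l1* and *Rpl22* are a paralog pair with unlike changes, and *Rpl5*, *Rps12* and *Rps13* had log2 fold changes below 0.
Rps2 (chr17:24720082-24720111, plus strand): taaattgtCCCTTCCgcggcgcctccctct
Rpsa (chr9:120127779-120127808, plus strand): ccgcccgtCCTTTCgcgctacccggggacg
Rps7 (chr12:28635910-28635939, minus strand): tgtccccaCCTCTTTTCTTCCgccacccgg
Rpl22l1 (chr3:28805503-28805532, plus strand): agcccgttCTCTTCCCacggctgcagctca
Rpl22 (chr4:152325702-152325731, plus strand): acagccgaCTTCgccctgggaaaagcaata
Rpl5 (chr5:107900500-107900529, plus strand): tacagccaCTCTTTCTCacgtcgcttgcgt
Rps12 (chr10:23787180-23787209, minus strand): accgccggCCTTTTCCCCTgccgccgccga
Rps13 (chr7:116334157-116334186, minus strand): tggcgtcaCTTCCTgtgcggcttgatttcc

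A tract of at least 6 bases was found in 48 of the 60 members, or 80.0%, and in 38.4% of the 10587 tested genes with an entry. It was present in 18 of the 24 members that rose (75%) and in 30 of the 36 that did not pass the test (83.3%). Members with and without a call therefore both held the tract in most cases. Unlike a TOP motif, such a tract need not begin at the start of the transcript, and some lie before it. *Rps12*, with a tract of 11 bases, and *Rps7*, with 13, lay near opposite ends of the fold changes. The log2 fold change of *Rps12* was -0.19, but 0.13 with pseudogene counts added. Whether tract length goes with the change was not tested. In the 300 bases from 250 before to 50 after the start, read on both strands, the ETS-type letters CCGGAAG occurred in 38.3% of members and 18.2% of tested genes. The palindrome CTCGCGAG occurred in 11.7% and 1.87%, the YY1-type letters AAGATGGC in 8.33% and 4.71%, and TATAAA in 10% and 7.0%. None of these letter strings contains another. A match is a description of the sequence and not evidence of a bound factor.

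Ribosomal protein genes were higher in the mutant ventricles, by a small amount that was similar in the large and the small subunit. With edgeR's quasi-likelihood test and an adjusted p under 0.05, 34 of 83 members (41.0%) were higher and 0 were lower. Over all 14451 genes tested, 5.11% were higher and 3.5% were lower. The median log2 fold change of the members was 0.23, or 1.17-fold (interquartile range 0.15 to 0.35), beside a median of -0.00 over all genes tested. The log2 fold change was positive in 78 members (94.0%) and in 49.7% of all genes tested. The values of the 4 mutant samples lay above all 4 WT samples in 48 members, and below them in 1, *Rpl7l1*. The same was true of 9.52% of all tested genes for higher and of 9.45% for lower.

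For the 0 lower members, the count was also 0 at an unadjusted p under 0.05, where 1718 of all genes were lower, and with DESeq2 or limma-voom, which called 732 and 522 of all genes lower. When counts were scaled by library totals alone, 25 members were higher and 0 lower, while the balance over all genes turned from 739 higher and 506 lower to 562 higher and 1041 lower. The number of members that rose was 22 without WT replicate 1, and also 22 without WT replicate 3, in place of 34, and the large-subunit count was 13 in each of these fits in place of 21. Over all genes, 335 and 386 rose in these fits in place of 739. With the globin share of counts as a covariate, 0 members and 0 genes of all tested rose or fell. Of the 34, 21 passed in every one of the 8 fits that left out a sample.

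The median fold changes and the percentages of members that rose were close in the subunits, and the ratio of their counts was alike in the genotypes. For the large subunit, 21 of 48 members rose (43.8%) and 0 fell, with a median log2 fold change of 0.23 (interquartile range 0.17 to 0.35). For the small subunit, 13 of 35 rose (37.1%) and 0 fell, with a median of 0.24 (interquartile range 0.13 to 0.35). Large-subunit members took 3.19%, 2.86%, 2.89% and 2.99% of all counts in mutant replicates 1 to 4 and 2.64%, 2.54%, 2.60% and 2.71% in the WT replicates. Small-subunit members took 2.26%, 2.04%, 2.04% and 2.08% in the mutant and 1.88%, 1.80%, 1.83% and 1.90% in WT. In both subunits all mutant samples lay above all WT samples. The ratio of large-subunit to small-subunit counts was 1.416 ± 0.0143 in the mutant and 1.415 ± 0.0101 in WT (SD, n = 4 each), and these values overlapped. The rise without mutant replicate 1 was a median of 0.16 for the large subunit and 0.15 for the small subunit.

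**Figure D1:**
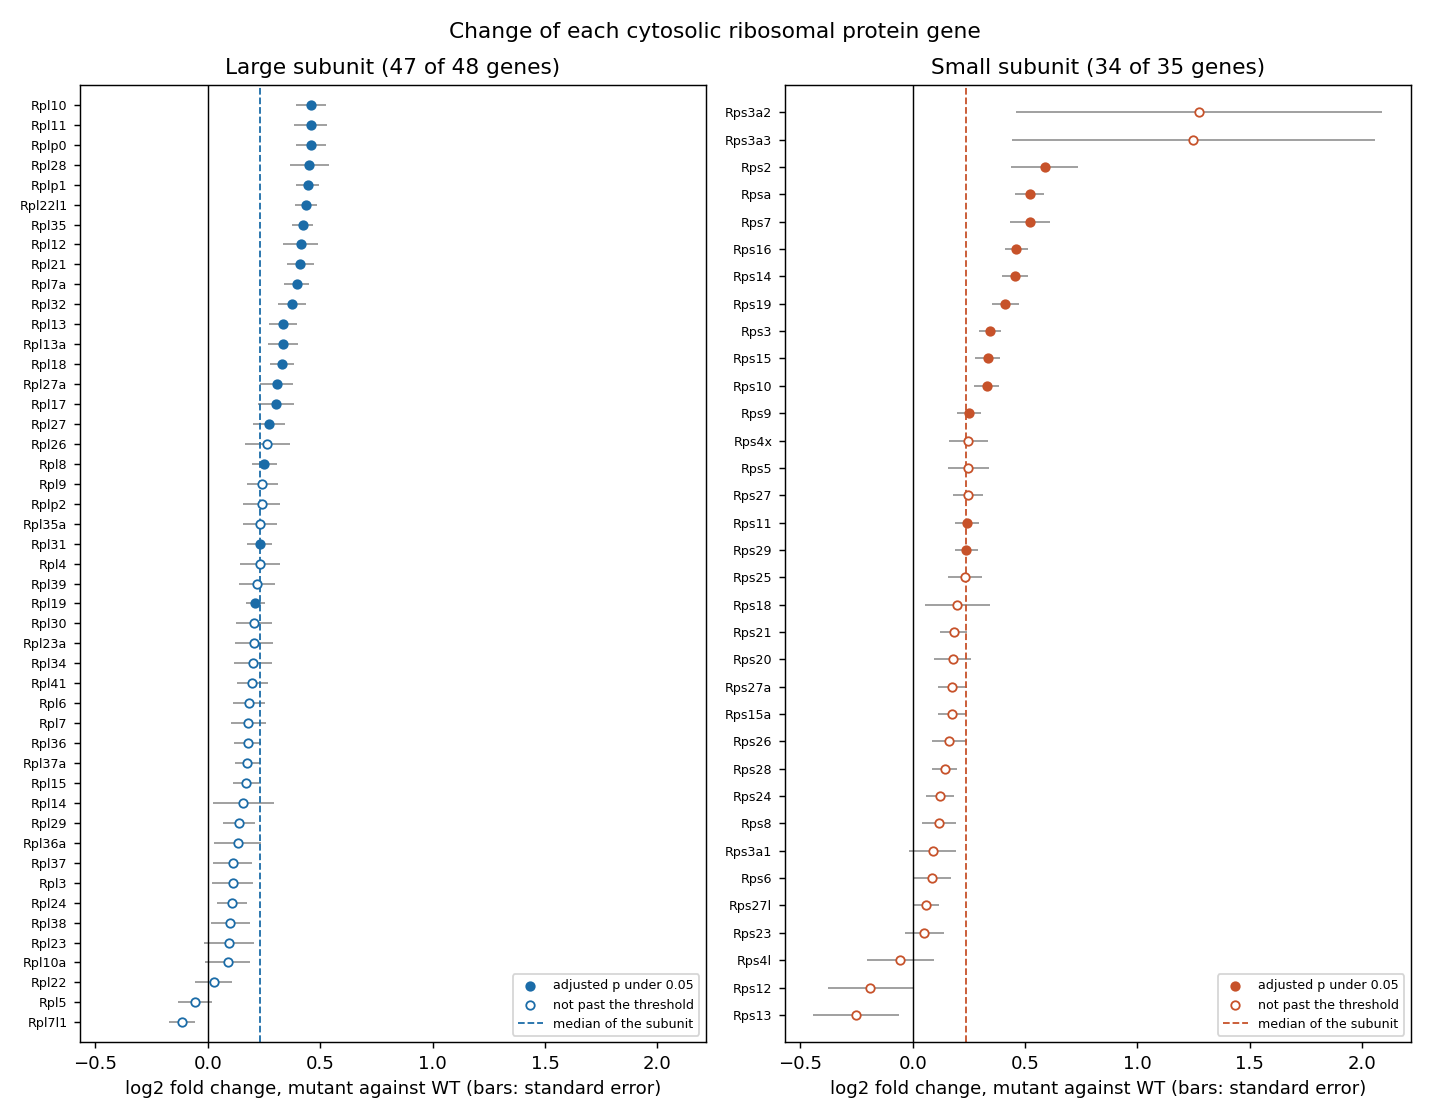
Log2 fold change of each ribosomal protein gene, mutant against WT, with large-subunit genes on the left and small-subunit genes on the right, ordered by value, with 1 gene of each subunit not shown. Bars are standard errors, filled points passed an adjusted p of 0.05, and dashed lines are the subunit medians of 0.23 and 0.24.

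The members differed in the size of their change. The SD of the log2 fold change over the 77 members other than paralogs and retrocopies was 0.153 (0.130 in the large and 0.184 in the small subunit). It was 0.298 over the 3653 tested genes at least as abundant as *Rps3a2*, the lowest of all members and not among the 77. Those genes include the globins, with log2 fold changes of 1.49 to 2.77, so the sets are unlike. The median standard error of a member's log2 fold change was 0.0704. Some members missed the threshold narrowly. *Rps27*, a zinc-finger protein of the small subunit, was at 382.7, 338.4, 313.5 and 317.2 CPM (counts relative to the normalised library size) in the mutant and at 287.2, 282.5, 282.5 and 289.0 CPM in WT, with all mutant values above WT (log2 fold change 0.24, adjusted p = 0.0507).

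The genes with the largest rises that passed the test belonged to both subunits. *Rpsa*, a protein of the small-subunit head and platform region that is also known as the laminin receptor, was at 1930, 1572, 1745 and 1834 CPM in the mutant and at 1232, 1217, 1207 and 1277 CPM in WT. All mutant values lay above WT, and the log2 fold change was 0.52 ± 0.0648 (SE, adjusted p = 0.00224). *Rps7*, a small-subunit protein also mutated in Diamond-Blackfan anemia, was at 856.1, 760.5, 726.1 and 655.1 CPM in the mutant and at 582.8, 521.6, 473.2 and 511.5 CPM in WT. Its groups did not overlap either (log2 fold change 0.52 ± 0.0888, adjusted p = 0.00734). *Rps16*, a small-subunit protein near the decoding site, was at 517.7, 478.7, 523.4 and 518.6 CPM against 359.8, 374.7, 359.9 and 386.4 CPM. It rose by 0.46 on the log2 scale (adjusted p = 0.00174).

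*Rps2*, which lines the path of the messenger RNA in the small subunit, had the largest fold change that passed the test, but the call depended on the samples and settings. Its values were 614.7, 441.7, 744.9 and 532.0 CPM in the mutant and 351.8, 452.0, 349.8 and 399.0 CPM in WT. Mutant replicate 2 lay below WT replicate 2, so the groups overlapped. The log2 fold change was 0.59 ± 0.148 (adjusted p = 0.0381), and the call was kept in 2 of the 8 fits without 1 sample. Leaving out mutant replicate 3, the highest sample, gave 0.45 (adjusted p = 0.0748). With pseudogene counts added it was 0.50 (adjusted p = 0.00246), and with DESeq2 it was 0.59 (adjusted p = 0.0017).

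*Rpl10*, an X-linked large-subunit protein added late to the subunit before it can join the small one, was at 676.2, 627.3, 671.0 and 719.3 CPM against 467.7, 453.4, 543.2 and 495.3 CPM (log2 fold change 0.46 ± 0.068, adjusted p = 0.00381). Its genotypes did not overlap. When counts of *Rpl10* pseudogene rows were added to the gene, its log2 fold change was 0.26 (adjusted p = 0.0263). The other X-linked members did not pass the test: *Rps4x* had 0.25 (adjusted p = 0.113), *Rpl39* had 0.22 (adjusted p = 0.129) and *Rpl36a* had 0.13 (adjusted p = 0.470). Without mutant replicate 1 these were 0.16, 0.13 and 0.00, and with pseudogene counts added *Rpl39* had 0.29 (adjusted p = 0.024) and *Rpl36a* had 0.21 (adjusted p = 0.141).

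The stalk proteins, which recruit elongation factors to the large subunit, differed in whether they passed. *Rplp0*, the base of the stalk, was at 1983, 1596, 1896 and 1894 CPM in the mutant and at 1348, 1353, 1321 and 1343 CPM in WT (log2 fold change 0.46, adjusted p = 0.00369). *Rplp1* was at 1141, 1136, 1178 and 1232 CPM against 879.7, 887.4, 814.2 and 862.4 CPM (0.44, adjusted p = 0.00178). The mutant values of both genes were clear of WT. *Rplp2*, the partner of *Rplp1*, was at 568.2, 421.4, 487.7 and 466.1 CPM against 411.2, 425.5, 406.5 and 401.6 CPM, a log2 difference of 0.24 (adjusted p = 0.103). Its mutant replicate 2 lay within the WT range, and without mutant replicate 1 the log2 difference was 0.16. The difference between *Rplp1* and *Rplp2* was not tested.

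A list of 9 members whose human counterparts are known for Diamond-Blackfan anemia was examined; it does not hold every such gene. Of these 5 rose and 0 fell, beside 41.0% of all members and 5.11% of all genes tested that rose. Besides *Rps7* these included *Rpl11* (log2 fold change 0.46, adjusted p = 0.00562), *Rps19* (0.41, adjusted p = 0.00374) and *Rps10* (0.33, adjusted p = 0.00618). *Rps19*, the gene most often mutated in the disease, was at 661.7, 624.5, 617.8 and 688.7 CPM in the mutant and at 512.3, 447.0, 481.4 and 508.6 CPM in WT, without overlap. *Rpl35a* had 0.23 (adjusted p = 0.0865), *Rps26* 0.16 (adjusted p = 0.229) and *Rps24* 0.12 (adjusted p = 0.256). Without mutant replicate 1 the values of *Rps26* and *Rps24* were 0.08 and 0.07.

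*Rpl5* and *Rpl11* enter the ribosome together with the 5S ribosomal RNA, and the free complex binds Mdm2, the inhibitor of p53. *Rpl11* was at 604.3, 674.9, 653.6 and 679.7 CPM in the mutant and at 488.4, 410.8, 488.8 and 513.8 CPM in WT, with all mutant values above WT. *Rpl5* was at 84.45, 86.74, 76.60 and 75.83 CPM against 89.97, 74.72, 88.34 and 83.41 CPM, with overlapping groups (log2 fold change -0.06, adjusted p = 0.700, and -0.11 to -0.02 with 1 sample left out). Per kilobase of coding sequence, *Rpl5* was the lowest protein-coding member in WT, at 94.4 ± 7.70 CPM per kb, and *Rpl11* was at 890.3 ± 83.7 CPM per kb (SD, n = 4 each). These are levels of assigned reads, and copies of these genes under names without -ps were not examined.

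By mean CPM over the genotypes the most abundant members were *Rpl4*, *Rplp0* and *Rpsa*. *Rpl4* and *Rpl3* are proteins of the large-subunit core. *Rpl4* was at 2303, 1679, 1797 and 1922 CPM in the mutant and at 1641, 1590, 1639 and 1691 CPM in WT (log2 fold change 0.23, adjusted p = 0.139). *Rpl3*, which lies by the peptidyl transferase centre, was at 1887, 1432, 1399 and 1477 CPM against 1441, 1384, 1447 and 1466 CPM (0.11, adjusted p = 0.489). In both genes mutant replicate 1 stood above every other sample, and the groups overlapped. Without that sample the log2 fold change was 0.13 for *Rpl4* and 0.00 for *Rpl3*.

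Paralogs and their parent genes had unlike values. *Rpl22l1*, which can take the place of *Rpl22* in the large subunit, was at 186.3, 181.2, 185.0 and 187.4 CPM in the mutant and at 135.4, 136.1, 132.2 and 142.5 CPM in WT. The log2 fold change was 0.44 ± 0.0479 (adjusted p = 0.00174), with no overlap. *Rpl22* was at 475.3, 392.2, 360.6 and 384.6 CPM against 408.9, 374.4, 395.6 and 404.5 CPM, with a log2 fold change of 0.03 (adjusted p = 0.878) that was -0.05 when counts were scaled by library totals. The ratio of *Rpl22l1* to *Rpl22* CPM was 0.392, 0.462, 0.513 and 0.487 in the mutant and 0.331, 0.364, 0.334 and 0.352 in WT, so that all mutant ratios were higher.

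In the other pairs the ratios of paralog to parent were lower in the mutant. *Rpl7l1* was at 100, 110.4, 111.6 and 114.6 CPM in the mutant and at 116.1, 115.6, 118.8 and 122.2 CPM in WT, the single member whose mutant values all lay below WT, but the difference did not pass the test (log2 fold change -0.11, adjusted p = 0.255). For *Rpl7* the log2 fold change was 0.18 (adjusted p = 0.189). Without mutant replicate 1 the values were -0.07 for *Rpl7l1* and 0.09 for *Rpl7*. The ratio of *Rpl7l1* to *Rpl7* was 0.0926, 0.131, 0.132 and 0.131 in the mutant and 0.142, 0.145, 0.150 and 0.151 in WT. *Rps27l*, which is also known as a p53 target, was between 107.0 and 120.1 CPM in the mutant and between 105.4 and 115.1 CPM in WT (0.06, adjusted p = 0.556). Its ratio to *Rps27* was 0.295, 0.355, 0.341 and 0.359 against 0.376, 0.378, 0.373 and 0.398, again without overlap. These ratios were given as values without a test.

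**Figure D2:**
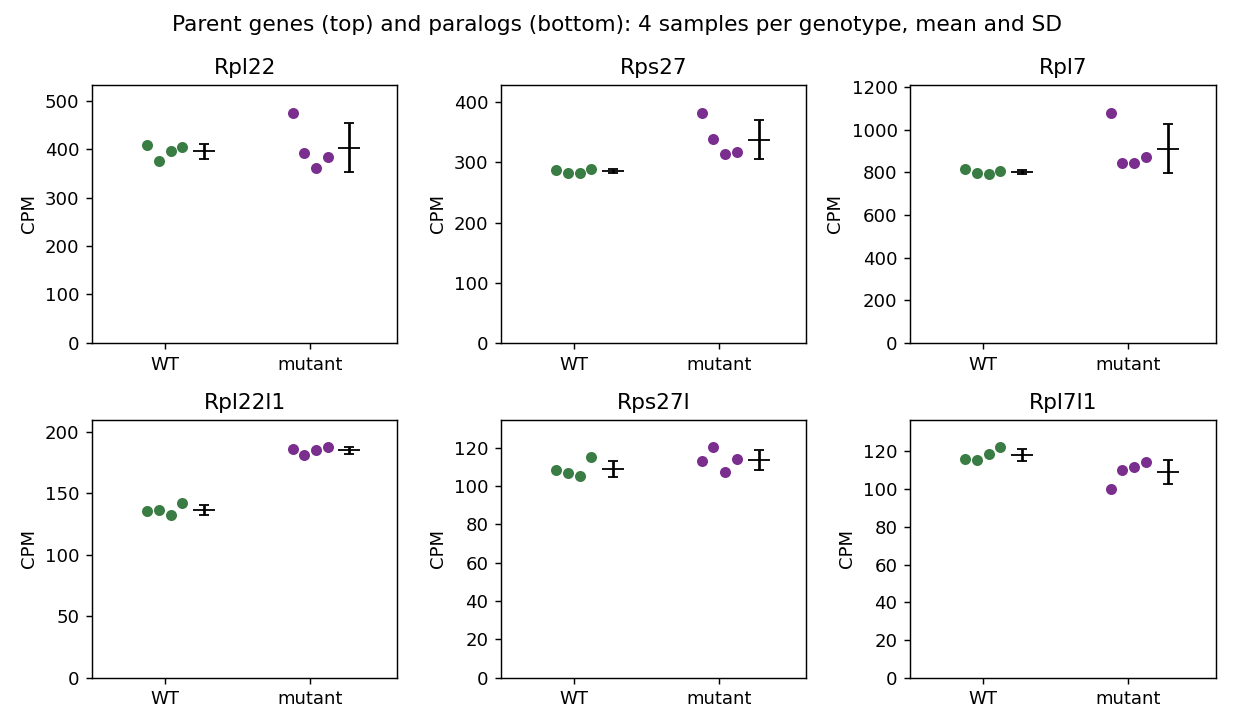
CPM of 3 parent genes (top row) and their paralogs (bottom row), with 1 point for each of 4 samples per genotype and the mean with its SD beside them. Of these 3 paralogs, *Rpl22l1* shows all mutant samples above WT, and *Rpl7l1* shows all of them below.

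The lowest members by CPM were the pseudogene rows. *Rps3a2* was at 77.24, 74.93, 99.40 and 97.10 CPM in the mutant and at 0.00, 98.28, 24.65 and 20.89 CPM in WT, and *Rps3a3* showed the same order in WT with 0.00 in replicate 1. Their log2 fold changes, 1.27 and 1.25 (adjusted p = 0.370 and 0.374), were the highest of the members but did not pass the test. They were 0.86 and 0.83 without WT replicate 1, 2.52 and 2.27 without WT replicate 2, and with limma-voom they were 3.64 and 3.59. The sum of *Rps3a1*, *Rps3a2* and *Rps3a3*, which does not depend on how reads were shared among them, was 1616, 1243, 1236 and 1304 CPM in the mutant and 1196, 1167, 1148 and 1178 CPM in WT. The log2 ratio of the mean sums was 0.20, and 0.11 without mutant replicate 1. For *Rps4l* the log2 fold change was -0.05 (adjusted p = 0.861), and its sum with *Rps4x* had a log2 ratio of 0.22, or 0.15 without mutant replicate 1.

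The remaining genes with fold changes below 0 were *Rps12* and *Rps13*, named here after their values were seen. *Rps12* was at 295.3, 149.6, 164.4 and 164.6 CPM in the mutant and at 216.8, 213.0, 219.9 and 231.3 CPM in WT. Mutant replicate 1 was the highest sample and the other mutants were the lowest 3, so that the log2 fold change of -0.19 (adjusted p = 0.585) became -0.47 (adjusted p = 0.000435) without replicate 1. *Rps13* was at 290.6, 272.8, 255.3 and 154.7 CPM against 227.6, 273.1, 303.4 and 354.3 CPM (-0.25, adjusted p = 0.453). Its lowest value was in mutant replicate 4, without which the log2 fold change was -0.09, and without WT replicate 4, its highest, it was -0.14. Pseudogene rows held 232.5% as many counts as *Rps12* itself and 58.4% as many as *Rps13*. When those counts were added, the log2 fold changes were 0.13 for both genes (adjusted p = 0.372 and 0.267). With pseudogene rows added for all members, 37 members rose, and 733 of all genes rose and 510 fell. The 295 pseudogene rows named after ribosomal proteins took 0.363% ± 0.0213 of counts in the mutant and 0.299% ± 0.0131 in WT (SD, n = 4 each), also without overlap.

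Mutant replicate 1 stood apart from the other mutants in these genes. The median log2 level of large-subunit members relative to the WT mean was 0.38, 0.14, 0.16 and 0.21 in mutant replicates 1 to 4, and between -0.04 and 0.04 in WT. For the small subunit it was 0.38, 0.14, 0.12 and 0.15, and between -0.04 and 0.04 in WT. Replicate 1 was the highest mutant sample in 14 of the 34 members that rose and in 43 of the 49 others. Its median log2 difference from the other mutants was 0.05 in the members that rose, 0.31 in the others and -0.01 over all genes tested. This split is by the call itself, and a mutant sample far from its group widens the spread and so can remove a call, so the contrast is a description only. Without it, 38 members rose, with all of the original 34 among them, and 1 fell (*Rps12*), beside 9.35% of all 14630 genes tested that rose and 1155 that fell. Positive fold changes were then seen in 71 of the 83 members (85.5%, against 48.5% of all genes).

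**Figure D3:**
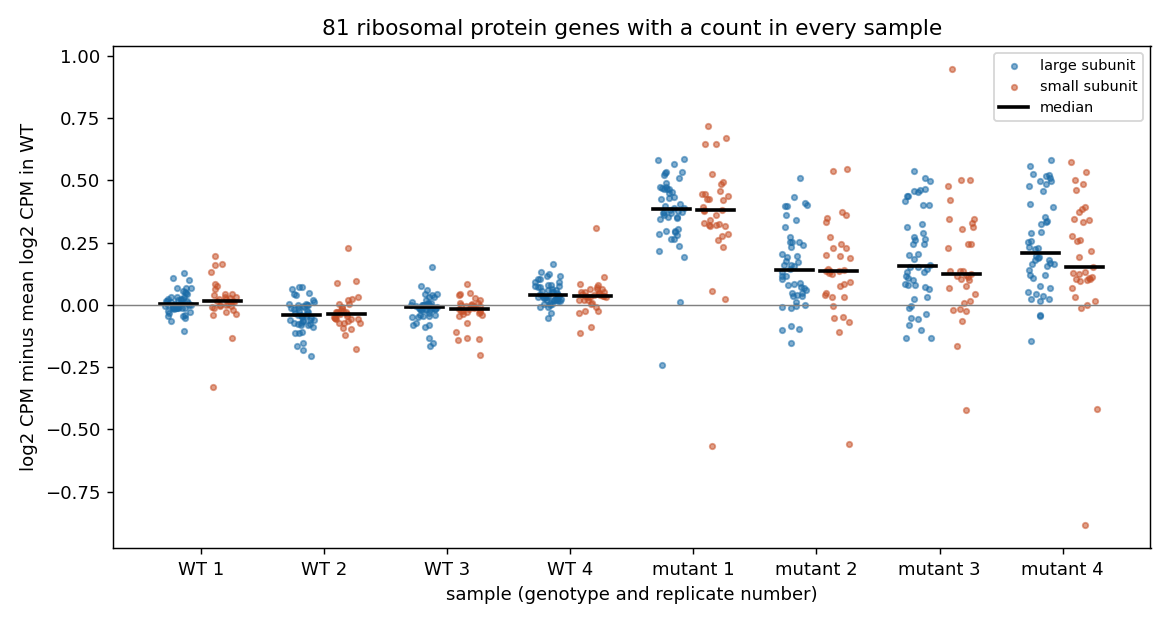
Log2 CPM of each ribosomal protein gene in each sample minus its mean log2 CPM in WT, for the 81 members with a count in every sample. Points are genes and black lines are medians. The medians of mutant replicate 1 lie at 0.38, above the 0.12 to 0.21 of the other mutants.

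**Figure D4:**
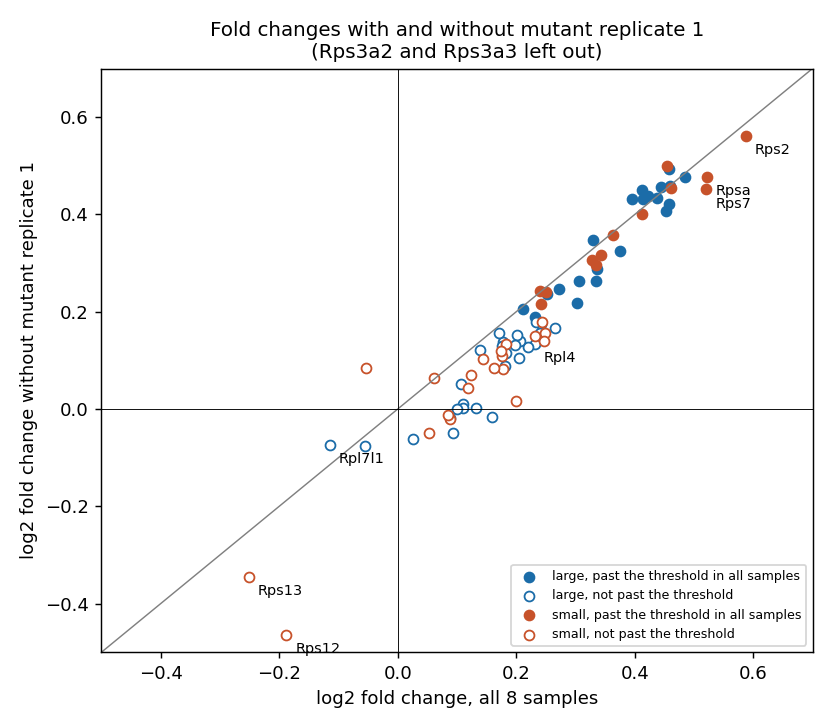
Log2 fold change of each member without mutant replicate 1 (vertical) against that in all 8 samples (horizontal). Filled points passed the test in all 8 samples and lie near the diagonal line of equal values, while most open points lie below it.

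The globin genes, which mark red blood cells, were also higher in the mutant. They took 6.26%, 1.93%, 3.80% and 3.89% of counts in mutant replicates 1 to 4 and 0.675%, 0.799%, 0.740% and 0.671% in the WT replicates. Ribosomal protein genes took 5.44%, 4.90%, 4.94% and 5.08% in the mutant and 4.52%, 4.34%, 4.43% and 4.62% in WT (5.09% ± 0.248 against 4.48% ± 0.120, SD, n = 4 each). All mutant samples were above all WT samples in both measures. Because globin itself adds to the total, the ribosomal protein share was also taken without globin and mitochondrial-genome counts, where it was 5.44% ± 0.347 in the mutant and 4.64% ± 0.120 in WT.

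Within the mutant, the ribosomal protein share followed the globin share in order: replicate 1 was highest in both, then 4, 3 and 2. The spread was unequal, since globin varied from 1.93% to 6.26% and the ribosomal protein share from 4.90% to 5.44%. Of the 83 members, 21 had their 4 mutant samples in exactly this order (25.3%, against 7.09% of all genes tested), 57 were highest in replicate 1 (68.7% against 37.5%) and 46 were lowest in replicate 2 (55.4% against 22.3%). Members moved together within a sample, so these counts are not independent observations of the order. Mutant replicate 2 had the least globin of the mutants, 1.93%, which was above every WT sample, as were its ribosomal protein shares of both subunits.

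Within WT the order was the opposite. Globin was highest in WT replicate 2, then 3, 1 and 4, and the ribosomal protein share was lowest in replicate 2, then 3, 1 and 4. Of the members, 0 of 83 followed the globin order in WT (4.59% of all genes tested), 17 had its exact reverse (20.5% against 4.24%) and 45 were lowest in WT replicate 2 (54.2% against 27%). These members are not independent either, and WT replicates 1 and 4 were close in globin share, at 0.675% and 0.671%. The globin share separated the genotypes, and each genotype had 4 samples, so no correlation was computed. With globin and mitochondrial-genome genes left out before the fit, 36 members rose, and 780 of all genes rose and 467 fell.

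The relation was also examined in a fit with genotype and the log2 globin share together, a choice made after the data were seen. In this fit the slope on globin was positive in 72 of 83 members (86.7%, against 50.6% of all genes tested), with a median of 0.11 on the log2 scale for each doubling of the globin share. Since members moved together within a sample, their slopes are not independent. The slope passed the test in 2 members, *Rplp2* and *Rpl14* (adjusted p = 0.0482 and 0.0413), beside 1.51% of all genes with a positive slope and 0.125% with a negative slope that passed. At an unadjusted p under 0.05 it was positive in 27 members (32.5%, against 10.7%). Without mutant replicate 1, slopes were positive in 58 members (69.9%, against 50.4%), with a median of 0.04, and passed the test in 0, beside 134 positive and 15 negative slopes that passed over all 14630 genes tested. At an unadjusted p under 0.05 they were then positive in 9 members (10.8%, against 6.24%) and negative in 2, beside 756 of all genes.

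The genotype term of the same fit estimates the difference at equal globin share, given a slope common to both genotypes. The globin shares of the genotypes did not overlap, so the term is an extrapolation, and the common slope was not tested. The genotype term passed in 0 members and in 0% of all genes tested in either direction, and the median log2 difference of the members was -0.02. At an unadjusted p under 0.05, 10 of 83 members were higher and 7 lower, beside 779 and 831 of all 14451 genes. Genotype accounted for 88% of the variance in the log2 globin share, and standard errors were 2.43 times as large in the median member as without the covariate. *Nrg1*, the deleted gene, did not pass either (log2 difference -1.37, adjusted p = 0.371). In these samples the change with genotype and the change with globin share cannot be told apart.

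**Figure D5:**
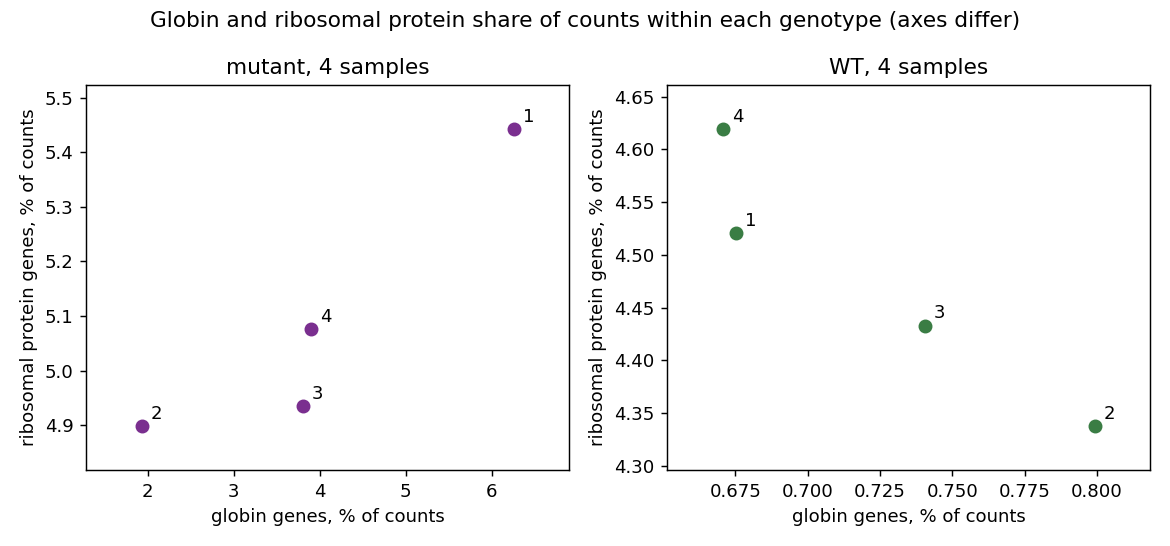
Share of counts in ribosomal protein genes (vertical, percent) against the share in globin genes (horizontal, percent), with mutant on the left, WT on the right, different axes, and replicate numbers beside the points. The points run upward in the mutant and downward in WT.

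Markers of other cell types were also counted, to be read against the 5.11% of all tested genes that rose and the 3.5% that fell. All 11 erythroid markers beside globin rose, with summed levels of 1336 to 3557 CPM in the mutant and 474.5 to 607.5 CPM in WT. Of 12 cardiomyocyte markers, which define the tissue, 0 rose and 0 fell, with sums of 35070 to 38240 CPM in the mutant and 36780 to 39070 CPM in WT. Of 10 endothelial markers 1 fell, *Tek*, which is the gene whose promoter drives Tie2-Cre, and sums were 883.7 to 954.6 CPM against 996.9 to 1080 CPM. Of 8 epicardial markers 2 rose, *Wt1* and *Tbx18*, with sums of 906.0 to 1120 CPM against 765.6 to 923.0 CPM. Of 8 leukocyte markers 2 passed the filter and 1 rose, with sums of 6.69 to 8.22 CPM against 3.59 to 4.12 CPM. Of 8 neural and foregut markers 2 passed the filter and 0 changed, with sums of 203.9 to 275.4 CPM against 256.0 to 282.2 CPM. The part of each of these cell types in the ribosomal protein values was not tested. In bulk tissue, a changed number of cells and a changed amount of RNA per cell cannot be told apart.

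As a check of the labels, *Nrg1* had 61, 59, 71 and 72 counts in the mutant and 156, 131, 121 and 173 in WT (log2 fold change -1.07, adjusted p = 0.00268). Total counts per sample were 12430368 to 14223860 in the mutant and 11852372 to 14360323 in WT.

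Of 6 genes for ribosomal proteins whose symbols lie outside the rule, 1 rose and 0 fell, beside 41.0% of members that rose. Among all genes tested, 5.11% rose and 3.5% fell. The median log2 fold change of the 6 genes was 0.16, with a range of -0.37 to 0.34. *Rack1*, a scaffold on the small-subunit head, was at 1212, 1019, 1090 and 1116 CPM in the mutant and at 886.1, 896.6, 873.6 and 902.4 CPM in WT (log2 fold change 0.32, adjusted p = 0.00948). *Fau*, which encodes a ubiquitin-like fusion with a small-subunit protein, had 0.34 (adjusted p = 0.0555). *Rpl36al* had 0.11, *Rpl37rt* 0.09 and *Rps27rt* -0.37 (adjusted p = 0.267, 0.557 and 0.476).

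The machinery that assembles ribosomes was described from gene lists, to be read against the 5.11% of all tested genes that rose and the 3.5% that fell. Of 48 genes for RNA polymerase I and ribosomal RNA processing, 1 rose and 0 fell, with a median log2 fold change of 0.07. The gene that rose was *Nhp2*, a component of the H/ACA particles that guide pseudouridylation (0.35, adjusted p = 0.0149). Of 39 genes for large-subunit assembly, 1 rose, *Noc2l* (0.53, adjusted p = 0.0158), and 0 fell, with a median of 0.04, or 0.02 without mutant replicate 1. Of 27 elongation factors and other genes known for a TOP motif, 4 rose and 0 fell, with a median of 0.09, or 0.05 without mutant replicate 1. *Eef2*, which moves the ribosome along the messenger RNA, was at 3438, 2879, 3317 and 3320 CPM in the mutant and at 2375, 2478, 2456 and 2365 CPM in WT (0.42, adjusted p = 0.0036). All of its mutant values lay above WT. *Myc*, a transcription factor known to act on ribosome synthesis, was at 56.64, 34.68, 49.63 and 48.38 CPM against 19.93, 20.20, 21.12 and 20.48 CPM (1.21, adjusted p = 0.00162), and it was the 1 gene of 9 in its family list that rose, with 0 that fell and a median of 0.24, or 0.11 without mutant replicate 1.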

How the data were processed

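RNA-seq of polyadenylated RNA was available for 4 Nrg-1flox;Tie2-Cre and 4 WT samples. The authors deposited expected counts per gene, estimated by RSEM 1.3.1 on GRCm38 after trimming with cutadapt, per the submitters' processing notes. Reads that fit more than 1 gene are divided by RSEM among the candidates, which bears on paralogs and pseudogenes. The aligner and the use of strand are not given in the sources used here. Symbols were matched for 53274 of 53465 rows, and positions come from GENCODE M21. Expected counts were rounded and tested with edgeR 4.0.16 in R 4.3.3 (TMM normalization, filterByExpr, quasi-likelihood test, Benjamini-Hochberg adjustment over 14451 genes, threshold 0.05). All 83 members passed the filter, which for *Rps3a2* and *Rps3a3* does not require a count in every sample. CPM values use TMM factors. Within genotypes, every pair of samples was further apart than counting noise (chi-square per degree of freedom 3.59 or more). The code was tested on simulated data. Some genes that enter the counts are not reported here by name.

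The members and gene lists were chosen with earlier results of these data known. Named genes were the 6 largest rises and falls past the threshold, the 3 highest and lowest by CPM, paralog pairs, stalk and SA proteins, genes known for Diamond-Blackfan anemia, X-linked members and, from each list, up to 2 genes with the smallest adjusted p. The fit was repeated with limma-voom (limma 3.58.1) and DESeq2 1.42.0, with other scalings and filters, removal of globin and mitochondrial genes, added pseudogene counts, an offset for length and GC content, the replicate number as a block, and each sample left out in turn. The globin share as a covariate was added after seeing the data.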

Additional observations from a re-analysis of the deposited data

Results flagged for a closer look

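In 6 of 68 groups of 4 samples examined, 1 sample lay so far from the rest that its gap to the nearest, divided by the range of the group, was above Dixon's 95% critical value for 4 samples. Chance gives about 3.4 of 68. In 5 of the 6, the sample was mutant replicate 1, which was high in *Rpl7* (0.873), *Rps26* (0.847), *Rpl36a* (0.841) and *Rpl3* (0.84) and in the median level of small-subunit members (0.89). None of these 4 genes passed the test in all 8 samples. In the sixth, mutant replicate 2 was low in *Rps16* (0.872), and this gene rose in every fit that left out a sample. Mutant replicate 1 also had the highest globin share, at 6.26%, and the lowest mitochondrial-genome share, at 2.03% against 2.54% to 3.03% in the other samples; the part of either in these values was not tested.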

How the results depend on the processing

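Apart from leaving out samples and from the globin covariate, 21 to 42 members rose and 0 fell. The 42 were found with DESeq2, where 1027 of all genes rose and 732 fell. Across these settings the median log2 fold change was 0.15 to 0.25 in the large subunit and 0.16 to 0.25 in the small subunit. With library totals only, 1041 of all genes fell, and *Rpl22* (-0.0519) and *Rps27l* (-0.0134) changed sign. The replicate numbers did not pair the samples, since correlations of same-numbered deviations were -0.09 to 0.02 and 0 of 4 numbers matched best. With the replicate number as a block, 25 members rose, and over all genes 398 rose and 218 fell. With the block together with an offset for length and GC content, 21 members rose, 7 of them small-subunit, and over all genes 323 rose and 227 fell. *Rps2* lost its call with the block (adjusted p = 0.115), with the offset alone (0.088) and with both (0.189), and *Rps10* with the offset (0.150) and with both (0.187). *Rps27* gained a call with DESeq2 (0.0086), the offset (0.042) and other settings, *Rpl35a* with DESeq2 (0.034), the offset (0.033) and both (0.043), and *Rpl39* with pseudogene counts (0.024). With 1 sample left out at a time, 22 to 38 members rose and 0 to 1 fell, 13 to 24 large-subunit members rose, 0 to 1 small-subunit members fell, the small-subunit median was 0.15 to 0.27, and over all genes 335 to 1368 rose and 174 to 1155 fell. With the globin share as a covariate, added after seeing the data, 0 members and 0 of all genes rose or fell, 0 in each subunit, and the medians were -0.0248 in the large and -0.0112 in the small subunit. Log2 differences that changed sign in that fit were those of *Rps2* (-0.170), *Rpl4* (-0.352), *Rps4l* (0.614), *Rps3a3* (-0.138), *Rpl3* (-0.370), *Rpl7* (-0.257), *Rpl7l1* (0.0571), *Rpl22* (-0.275), *Rpl39* (-0.117), *Rplp2* (-0.345), *Rps24* (-0.0808), *Rps26* (-0.231), *Rpl5* (0.0784), *Rps4x* (-0.175) and *Rpl36a* (-0.387), none with an adjusted p under 0.05. With a sample left out, *Rps4l* ranged from -0.12 to 0.0839 and *Rpl22* from -0.0619 to 0.0763. The filter of 10 or more counts in every sample removed *Rps3a2* and *Rps3a3*. For the named members, 389 of 432 results under other settings kept direction and side of the threshold, 17 were reversed, 17 lost and 9 gained a call. With a sample left out, 236 of 248 kept both, 4 were reversed, 6 lost and 2 gained a call. The cause of each change was not tested, and fits without a sample had fewer samples. Depth was not varied.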

Other observations

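The mitochondrial ribosomal protein genes, which build the separate ribosome of that organelle, were examined beside the cytosolic genes. Over all genes tested, 5.11% rose and 3.5% fell. Of 78 tested, 1 rose and 3 fell, with a median log2 fold change of 0.02, or 0.05 without mutant replicate 1. *Mrpl14* rose (0.35, adjusted p = 0.0124 from edgeR's test) and *Mrpl33* fell (-0.27, adjusted p = 0.0183). The difference between the lists was not tested. Of 15 tested p53 targets, 3 rose and 1 fell, with a median of 0.19. *Bax*, a promoter of apoptosis, rose by 0.34 (adjusted p = 0.00498), with all mutant values above WT, and *Sesn2*, an inhibitor of mTORC1, rose by 0.85 (adjusted p = 0.0285). The target that fell was *Trp53inp1* (-0.33, adjusted p = 0.0375).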
